A study of Homo sapiens with 6 samples.

Results

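Circadian clock genes were followed in MCF10A, a nonmalignant breast epithelial cell line of human origin, after knockdown of DAB2IP. The set holds 10 genes (CLOCK, ARNTL, PER2, PER3, CRY1, CRY2, NR1D1, NR1D2, DBP and BHLHE40), found by exact gene name among the 58735 genes of the deposited count table, and each name matched 1 row. 3 libraries came from cells given a nontargeting siRNA pool (siControl, labelled WT) and 3 from cells given siRNA against DAB2IP (siDAB2IP, labelled DAB2IP knockdown). Each group received a single siRNA reagent, and RNA was taken 48 hours after transfection. Cells of both groups grew in DMEM/F12 with 5% horse serum, insulin at 10 ug/mL, epidermal growth factor at 20 ng/mL, cholera toxin at 100 ng/mL and hydrocortisone at 0.5 ug/mL. All libraries come from 1 cell line, and the labels do not say whether replicates were separate cultures, so p-values measure the spread between these libraries. Neither the labels nor the methods describe a step to align the clocks of the cells, and with a single time point a change in phase and a change in mean level cannot be told apart.

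The circadian clock is a transcription loop present in most mammalian cells. The proteins encoded by CLOCK and ARNTL (also called BMAL1) form a dimer that binds E-box motifs and activates PER, CRY, NR1D, DBP and BHLHE40 genes. PER and CRY proteins then enter the nucleus and inhibit that dimer. NR1D1 and NR1D2, also called REV-ERB alpha and beta, bind RORE motifs and repress ARNTL, while the protein of DBP activates D-box promoters that NFIL3 represses. In cultured epithelial cells the phases of single cells drift apart unless a stimulus such as serum or a glucocorticoid sets them.

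DAB2IP itself was at 103, 94.2 and 77.4 CPM (counts scaled to the library total with trimmed mean of M-values, TMM, factors) in siControl replicates 1, 2 and 3 and at 27.5, 25.6 and 22.4 CPM in siDAB2IP replicates 1, 2 and 3. Its log2 fold change was −1.86 (standard error 0.13, adjusted p = 9.71e-05 from edgeR). Library totals lay between 16353783 and 21916062 counts, so a gene without counts in a library was at most at 0.139 to 0.187 CPM, a limit for counting error only. Mitochondrial genes took 10.6% to 10.9% of the counts in siControl and 9.59% to 12.8% in siDAB2IP. All 9 mammary epithelial markers (such as KRT5, TP63 and CDH1) exceeded 1 CPM in every library, and their summed level was 8198 to 9922 CPM in siControl and 5334 to 6693 CPM in siDAB2IP. Mean levels of 6 of the 9 were lower in siDAB2IP, with KRT5 (3532 to 1800 CPM) and KRT14 (2186 to 765 CPM) the largest in CPM, while LAMB3 rose (856 to 1733 CPM, log2 fold change 1.02, adjusted p = 0.00128 from edgeR) and CDH1 and KRT18 had slightly higher means. Both luminal hormone receptor genes, ESR1 and PGR, stayed under 1 CPM. Of 4 leukocyte markers only CD14 exceeded 1 CPM, PTPRC had at most 4 counts and CD3E had 0. Of 4 fibroblast markers COL1A1 and DCN exceeded 1 CPM, the summed level was 162 to 291 CPM in siControl and 146 to 205 CPM in siDAB2IP, and COL1A2 and PDGFRA had at most 4 counts. The summed level of 3 endothelial markers was 11.0 to 16.0 CPM in siControl and 7.42 to 11.2 CPM in siDAB2IP. The part of these marker differences in the results was not tested.

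The promoters were read first, since the clock proteins act through short DNA motifs. RefSeq promoter windows on GRCh38.p14 (250 bases before to 50 bases after each transcription start) were found for all 10 members, 15 windows in all. They were searched on both strands for the E-box CACGTG, which reads alike on either strand. The E′-box was searched as CACGTT, which reads AACGTG from the opposite strand. For the D-box the letters were TTANGTAA, or TTACNTAA in reverse. The RORE core was AGGTCA, which becomes TGACCT when the strand is turned. No motif found overlapped another. Of all 35116 windows in the table, 7.26% held the E-box, 5.34% the E′-box, 2.18% the D-box and 13.8% the RORE core. Among the members, 2 held an E-box (NR1D2 and BHLHE40) and 5 an E′-box (CLOCK, PER2, CRY1, CRY2 and NR1D1). The D-box was found in 3 (PER2, PER3 and NR1D2) and the RORE core in 2 (ARNTL and CRY2). DBP held none of the 4 in its window. The shares are per window, whereas members are counted per gene, once if any of its windows held the motif. The 2 are therefore not on the same scale. A match describes the letters only. The stretches below belong to 3 pairs of related genes that are compared as ratios, and they show motifs found in the partners. Not every window is printed in full, so the lack of a motif cannot be read from them. Letters run 5′ to 3′ on the gene's strand, and capitals mark the motifs. For PER2 the E′-box lies 197 bases before the start and the D-box spans the start.
PER2, chr2:238288601-238288860, minus strand: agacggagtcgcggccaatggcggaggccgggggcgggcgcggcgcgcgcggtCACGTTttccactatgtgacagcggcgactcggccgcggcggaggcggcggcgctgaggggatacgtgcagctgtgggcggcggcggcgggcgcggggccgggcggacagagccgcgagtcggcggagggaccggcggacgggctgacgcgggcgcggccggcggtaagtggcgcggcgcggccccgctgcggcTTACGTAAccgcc
The PER3 window carries a D-box 177 bases before its upstream start and no E-box or E′-box.
PER3, chr1:7784041-7784290, plus strand: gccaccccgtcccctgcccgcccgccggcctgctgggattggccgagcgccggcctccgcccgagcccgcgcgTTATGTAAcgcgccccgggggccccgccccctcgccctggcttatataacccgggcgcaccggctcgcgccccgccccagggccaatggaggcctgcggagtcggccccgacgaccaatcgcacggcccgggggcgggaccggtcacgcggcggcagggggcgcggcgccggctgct
The upstream CRY2 window holds the RORE core 62 bases before the start. The downstream CRY2 window holds an E′-box 188 bases before its start and a RORE core, and the CRY1 window holds an E′-box 89 bases before the start, so both genes carry the E′-box letters. The E′-boxes are given with 30 bases around them.
CRY2, chr11:45846868-45847117, plus strand: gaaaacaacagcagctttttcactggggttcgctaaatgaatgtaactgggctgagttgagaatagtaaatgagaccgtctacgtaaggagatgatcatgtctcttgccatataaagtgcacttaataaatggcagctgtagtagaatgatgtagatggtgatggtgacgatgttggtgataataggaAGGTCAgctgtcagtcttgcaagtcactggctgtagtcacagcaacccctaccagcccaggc
CRY2, chr11:45847275-45847304, plus strand: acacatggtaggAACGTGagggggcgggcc
CRY1, chr12:107093621-107093650, minus strand: acacacttcagaAACGTGaggtgccggtgg
NR1D2 carries a D-box and 2 E-boxes, at 194, 155 and 105 bases before its downstream start, and NR1D1 carries an E′-box 168 bases before its start.
NR1D2, chr3:23945871-23946120, plus strand: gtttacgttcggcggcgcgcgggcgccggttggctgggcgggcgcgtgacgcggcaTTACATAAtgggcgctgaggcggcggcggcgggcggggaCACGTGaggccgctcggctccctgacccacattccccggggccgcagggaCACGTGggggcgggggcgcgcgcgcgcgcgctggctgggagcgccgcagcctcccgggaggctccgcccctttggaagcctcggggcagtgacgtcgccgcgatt
NR1D1, chr17:40100740-40100769, minus strand: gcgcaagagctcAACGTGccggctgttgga

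Levels between genes were compared per length, in the FPKM values that the authors deposited. In siControl the highest of the 10 was BHLHE40, a repressor also known as DEC1, at 24.2 ± 3.77 FPKM (SD, n = 3). PER2 followed at 5.61 ± 1.09 and ARNTL at 5.61 ± 1.12 FPKM, then NR1D1 at 4.59 ± 0.828 and CLOCK at 3.24 ± 0.293 FPKM. NR1D2 was at 3.06 ± 0.160, CRY2 at 2.59 ± 0.380 and CRY1 at 2.24 ± 0.405 FPKM. DBP was at 1.01 ± 0.113 and PER3, the lowest, at 0.157 ± 0.0659 FPKM. The 15430 genes tested were also ranked by their mean FPKM over all 6 libraries, siDAB2IP included. BHLHE40 lay at the percentile 89.6, DBP at 19.7, PER3 at 3.36 and the other members between 36.7 and 56.8. In siControl, library values of neighbours overlapped from PER2 to ARNTL to NR1D1, and again from CLOCK to NR1D2 to CRY2 to CRY1. The order of these neighbours was therefore not resolved, though every CLOCK and NR1D2 library lay above every CRY1 library. BHLHE40 stood 4.32-fold above PER2, CRY1 stood 2.21-fold above DBP, and DBP stood 6.46-fold above PER3, each without overlap between libraries. The step from NR1D1 to CLOCK was 1.42-fold, also without overlap. In siDAB2IP the same genes came first and last, and NR1D1 (5.64 ± 0.439 FPKM) stood second by its mean, ahead of ARNTL (4.90 ± 1.07 FPKM) and PER2 (3.61 ± 0.884 FPKM). Library values of NR1D1 and ARNTL overlapped there, as did those of ARNTL and PER2, so the order of these neighbours was not resolved. CRY1 (2.86 ± 0.449 FPKM) then stood above CRY2 (1.80 ± 0.180 FPKM), without overlap between libraries, whereas CRY2 was the higher of both in each siControl library.

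**Figure D1:**
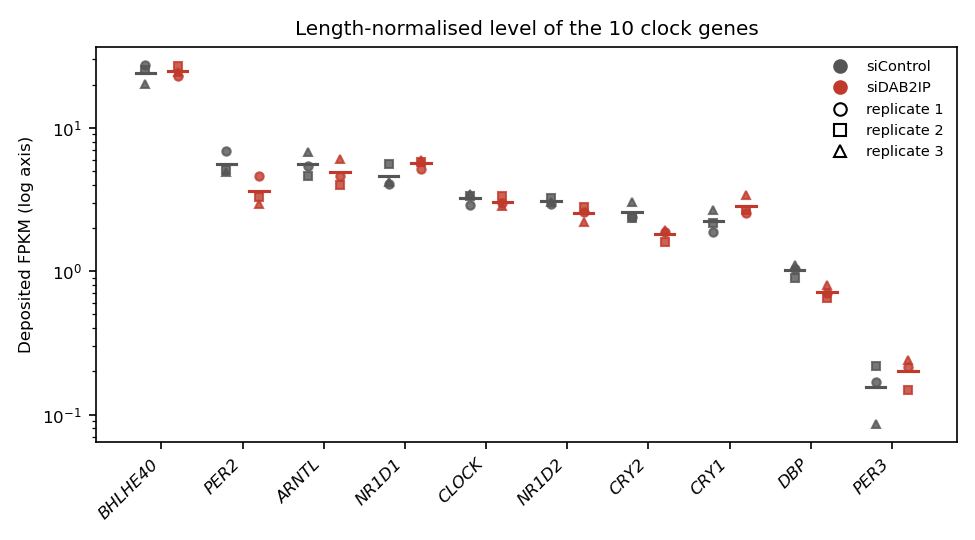
Deposited FPKM of the 10 clock genes on a log axis, ordered by the siControl mean. Grey symbols are siControl libraries, red symbols siDAB2IP libraries, shapes give the replicate and bars the mean. BHLHE40 is highest, PER3 lowest, and CRY1 and CRY2 exchange order between the groups.

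In the edgeR fit without replicate numbers, knockdown was followed by a fall of PER2 and by no other call among the 10 genes. PER2 fell to 64.5% of its control level, 1 of 10 members, against 7.65% of the 15430 genes tested that fell. 0 members rose, against 6.55% of the genes tested, and 0 also rose with DESeq2 (7.37% of its genes rose). DESeq2 called 2 members lower, PER2 and CRY2, against 9.23% of its genes. At an unadjusted p under 0.05, 3 members were lower (PER2, CRY2 and DBP), against 15.5% of the genes tested, and the 0 that were higher stand against 14.5%. All 10 members passed the filter on low counts. Their median log2 fold change was −0.14 (0.01 over all genes tested), 4 were positive and 6 negative, and the median absolute log2 fold change was 0.32 (0.24 over all genes tested). With the replicate number as a block, 2 of 10 fell, PER2 and CRY2, against 11.4% of all genes that fell in that fit, and 0 rose, against 9.59%. Groups did not overlap for 4 members (PER2, CRY2, NR1D2 and DBP), all lower in siDAB2IP, and 18.3% of all genes tested were lower without overlap. 0 members were higher without overlap, against 17.6% of all genes tested.

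**Figure D2:**
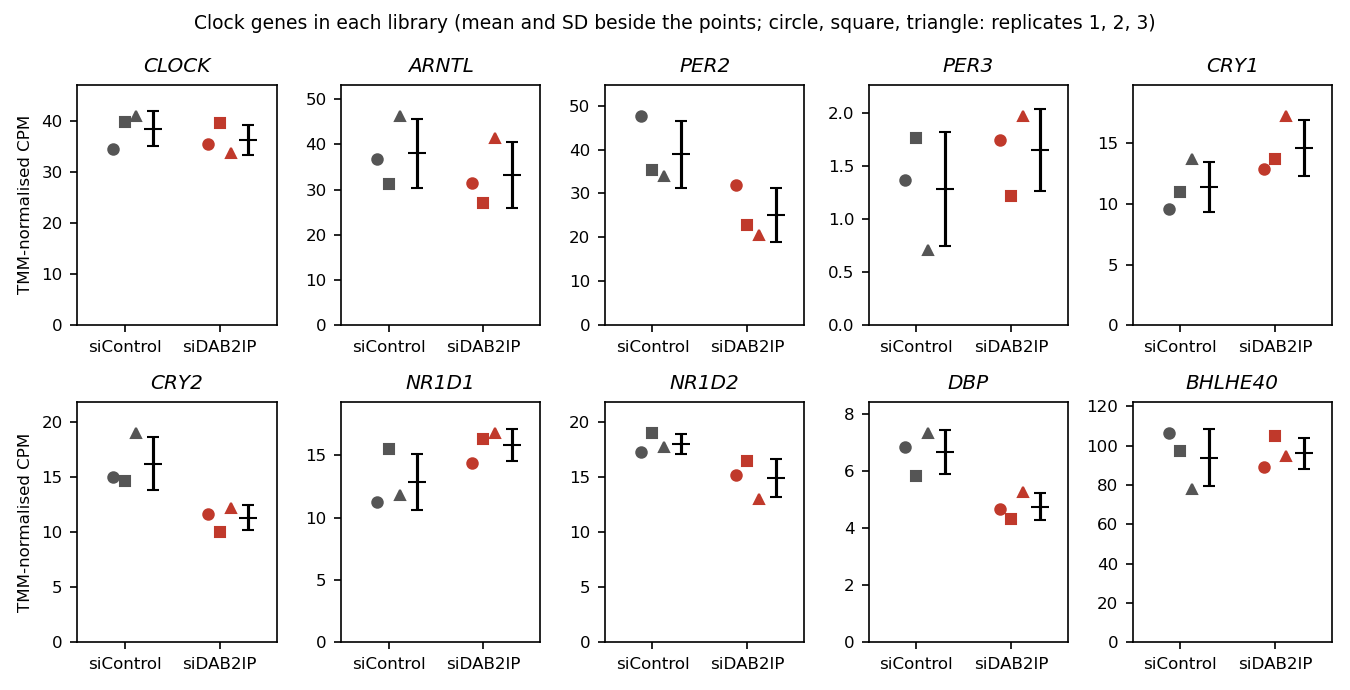
TMM-normalized CPM of each clock gene in each library, with the mean and SD beside the points. PER2, CRY2, NR1D2 and DBP are lower in all 3 siDAB2IP libraries than in any siControl library, and the groups of the other 6 genes overlap.

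In the positive limb, neither partner passed the test. CLOCK (chr4:55427903-55547138, minus strand of GRCh38), which encodes a histone acetyltransferase and DNA-binding subunit, was at 34.5, 39.8 and 41.0 CPM in siControl and at 35.4, 39.6 and 33.7 CPM in siDAB2IP. The groups overlapped, and the log2 fold change of −0.08 had a 95% interval from −0.34 to 0.17 (adjusted p = 0.673 from edgeR). CLOCK shares 76 exon bases of its 11762 with a tested gene on the opposite strand. Reads of these bases cannot be assigned, as the counting strand is not given in the sources used here. ARNTL (chr11:13276652-13387266, plus strand), its dimer partner, was at 36.7, 31.2 and 46.3 CPM in siControl and at 31.5, 27.1 and 41.4 CPM in siDAB2IP. In both groups replicate 3 was the highest and replicate 2 the lowest, and the spread within a group exceeded the difference between groups. Its log2 fold change was −0.19 (95% interval −0.60 to 0.21, adjusted p = 0.531). Within replicate numbers ARNTL was lower in siDAB2IP by −0.22, −0.20 and −0.16 on the log2 scale, and the fit with the block gave an adjusted p of 0.179. Intervals of both genes leave out a 2-fold change in either direction.

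In the negative limb PER2 fell, CRY2 lay close to the threshold and CRY1 and PER3 did not pass it. PER2 (chr2:238244038-238290102, minus strand), the scaffold of the inhibitory complex, was at 47.7, 35.2 and 33.9 CPM in siControl and at 32.0, 22.8 and 20.5 CPM in siDAB2IP. Each siDAB2IP library lay under every siControl library, with a narrow gap between siDAB2IP replicate 1 and siControl replicate 3. The log2 fold change was −0.63 (standard error 0.19, 95% interval −1.05 to −0.22, adjusted p = 0.0493 from edgeR). Within replicate numbers the differences were −0.57, −0.63 and −0.73 on the log2 scale, and with the block the adjusted p was 0.00368. The call was lost without siControl replicate 1 (adjusted p = 0.148), siControl replicate 2 (0.0906), siControl replicate 3 (0.0631), siDAB2IP replicate 2 (0.123) or siDAB2IP replicate 3 (0.0674), with library size only (0.0525) and with limma on log2(FPKM + 1) (0.0829) or log2(FPKM + 0.1) (0.0844), while the log2 fold change stayed between −0.74 and −0.49 in these fits.

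CRY2 (chr11:45847118-45883248, plus strand), a cryptochrome repressor that binds PER proteins, was at 15.0, 14.6 and 19.0 CPM in siControl and at 11.7, 10.0 and 12.2 CPM in siDAB2IP. The groups did not overlap. Its log2 fold change was −0.52 (standard error 0.16, 95% interval −0.87 to −0.17, adjusted p = 0.0529 from edgeR), and it passed the threshold with the block (adjusted p = 0.0247), with DESeq2 (0.0376), with no filter on low counts (0.0286) and without siDAB2IP replicate 3 (0.0325). It did not pass without any of the other 5 libraries (adjusted p from 0.0843 to 0.178, with −0.41 on the log2 scale without siControl replicate 3) or with limma on log2(FPKM + 1) (0.0848) or log2(FPKM + 0.1) (0.0839). Nor did it pass in edgeR with RLE factors (adjusted p = 0.0538), library size only (0.0723) or at least 10 counts in every library (0.0510). Without replicate 3 of both groups the adjusted p of CRY2 was 0.0754. CRY1 (chr12:106991364-107093829, minus strand), its paralog, was at 9.60, 11.0 and 13.7 CPM in siControl and at 12.9, 13.7 and 17.3 CPM in siDAB2IP. The highest siControl library lay above the lowest siDAB2IP library, yet CRY1 was higher in siDAB2IP within each replicate number, by 0.43, 0.32 and 0.34 on the log2 scale. Its log2 fold change was 0.36 (95% interval −0.04 to 0.75, adjusted p = 0.211; 0.0767 with the block). PER3 (chr1:7784320-7845177, plus strand) had only 12 to 38 counts in a library, at 1.37, 1.76 and 0.705 CPM in siControl and 1.75, 1.22 and 1.97 CPM in siDAB2IP, and its interval from −0.49 to 1.18 on the log2 scale spans changes in both directions.

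In the REV-ERB loop, both nuclear receptor genes stayed short of the threshold and lay on opposite sides of zero. NR1D1 (chr17:40092787-40100725, minus strand) was at 11.3, 15.5 and 11.8 CPM in siControl and at 14.4, 16.3 and 16.8 CPM in siDAB2IP. Its groups overlapped through siControl replicate 2, and the log2 fold change was 0.30 (95% interval −0.06 to 0.65, adjusted p = 0.248 from edgeR). NR1D2 (chr3:23945260-23980618, plus strand) was at 17.3, 19.0 and 17.7 CPM in siControl and at 15.2, 16.4 and 13.0 CPM in siDAB2IP. Its groups did not overlap, and the log2 fold change was −0.27 (95% interval −0.58 to 0.03, adjusted p = 0.212). NR1D1 shares 263 exon bases of its 2772 with THRA, a thyroid hormone receptor gene on the opposite strand, whose log2 fold change was 0.16 (adjusted p = 0.424). The strand used in counting is not given in the sources used here, so reads of NR1D1 and THRA cannot be told apart there.

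DBP (chr19:48630030-48637438, minus strand), the PAR bZIP activator at the output of the clock, was at 6.85, 5.85 and 7.34 CPM in siControl and at 4.68, 4.32 and 5.28 CPM in siDAB2IP. All 3 siDAB2IP libraries lay under all siControl libraries, and the pair differences were −0.55, −0.43 and −0.47 on the log2 scale. The log2 fold change was −0.49 (95% interval −0.90 to −0.07, adjusted p = 0.109 from edgeR; 0.0688 with the block), which did not pass the threshold. DBP shares 661 exon bases of 6544 with SPHK2, a sphingosine kinase gene on the opposite strand that rose (log2 fold change 0.61, adjusted p = 0.0189), the direction opposite to that of DBP. As the strand used in counting is not given, reads of DBP and SPHK2 cannot be told apart there either. The part of these shared bases in the value of DBP was not tested. BHLHE40 (chr3:4979116-4985323, plus strand) was at 106, 97.3 and 77.8 CPM in siControl and at 89.1, 105 and 94.7 CPM in siDAB2IP. Its groups overlapped widely, and the log2 fold change of 0.04 had an interval from −0.24 to 0.32 (adjusted p = 0.884). The sign of its fold change turned when siControl replicate 3 (−0.10) or siDAB2IP replicate 2 (−0.03) was left out.

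Taking replicate numbers as pairs, 5 members were lower in siDAB2IP in 3 of 3 pairs (ARNTL, PER2, CRY2, NR1D2 and DBP), 2 were higher in 3 of 3 (CRY1 and NR1D1) and 3 were mixed (CLOCK, PER3 and BHLHE40). Over all genes tested, 28.3% were lower and 27.9% higher in 3 of 3 pairs. Related genes were then compared within each library, where the scaling between libraries cancels. These ratios restate the values of their members and are no separate evidence. 4 ratios of counts were tested with two-sided exact permutation tests, adjusted over the 4, and with 3 libraries against 3 no such p can go below 0.1.

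The ratio of CRY1 to CRY2 counts was 0.640, 0.753 and 0.722 in siControl and 1.11, 1.37 and 1.42 in siDAB2IP. CRY2 had the higher count in every siControl library, and CRY1 in every siDAB2IP library. The log2 ratio differed by 0.88 (standard error 0.13), 1.83-fold, with 0.79, 0.86 and 0.97 within replicate numbers (exact permutation p = 0.1, the smallest possible, adjusted p = 0.133). Across the alternatives and the fits without a library the difference lay between 0.81 and 0.99. In FPKM, CRY1 made up 46.3% ± 2.10 of the sum of both in siControl and 61.2% ± 3.22 in siDAB2IP (SD, n = 3), while that sum was 4.83 ± 0.768 and 4.66 ± 0.566 FPKM. The sums were computed after the values of single genes had been seen. They differed by less than the spread between libraries.

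The ratio of NR1D1 to NR1D2 counts was 0.654, 0.814 and 0.666 in siControl and 0.948, 0.990 and 1.28 in siDAB2IP, without overlap. The log2 ratio differed by 0.59 (standard error 0.17), with 0.54, 0.28 and 0.95 within replicate numbers (exact permutation p = 0.1, adjusted p = 0.133). The summed level of both genes was 7.66 ± 0.987 FPKM in siControl and 8.17 ± 0.437 FPKM in siDAB2IP (SD, n = 3), and these ranges overlapped. The log2 ratio of PER2 to PER3 was 5.09, 4.30 and 5.53 in siControl and 4.17, 4.19 and 3.36 in siDAB2IP. It differed by −1.07 (standard error 0.45, exact permutation p = 0.1, adjusted p = 0.133), but the step within replicate numbers ranged from −2.17 to −0.11, and it rests on the few counts of PER3. The ratio of CLOCK to ARNTL did not separate the groups. Its log2 value was −0.09, 0.35 and −0.18 in siControl and 0.17, 0.54 and −0.29 in siDAB2IP, a difference of 0.11 (standard error 0.29, exact permutation p = 0.8) that turned to −0.09 without siDAB2IP replicate 2.

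**Figure D3:**
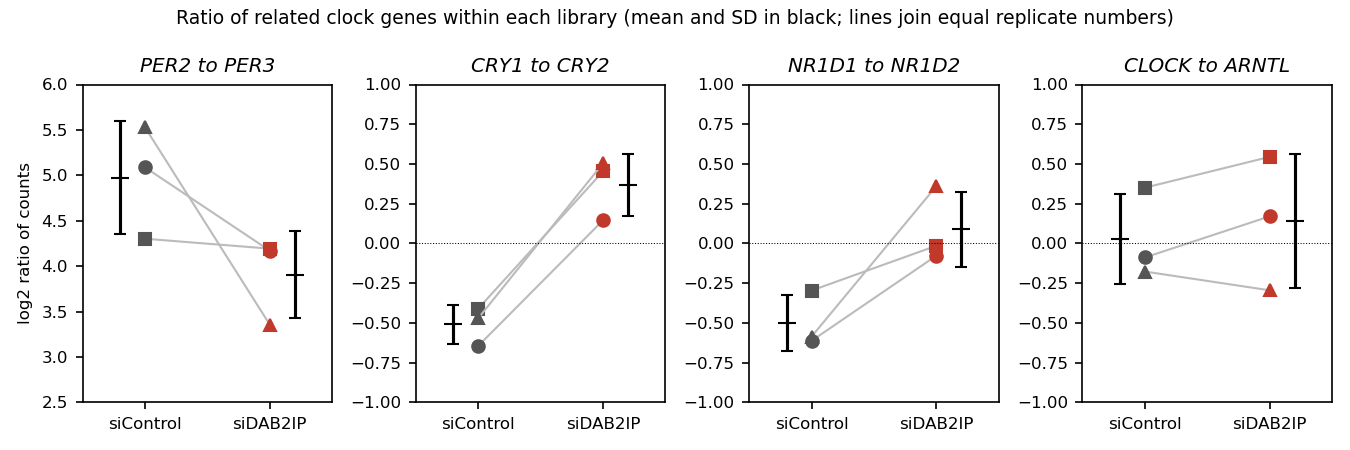
Log2 ratio of counts of related clock genes in each library, with lines joining equal replicate numbers and the mean and SD in black. CRY1 to CRY2 and NR1D1 to NR1D2 are higher in all 3 siDAB2IP libraries, PER2 to PER3 is lower, and CLOCK to ARNTL overlaps.

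The members were set beside 26 other genes of the clock network, of which 23 were tested and RORB, HLF and FBXL21 had too few counts. Of the 23, 1 rose and 7 fell, against 6.55% and 7.65% of all genes tested. With the block 2 rose and 9 fell, against 9.59% and 11.4%. The median log2 fold change of the 23 was −0.28, and that of all genes tested 0.01. The 26 genes were chosen with earlier results of these data known. These counts and the median therefore cannot test the network as a set. Among close relatives of the members, PER1, the most abundant PER gene here, fell from 176 ± 12.6 to 135 ± 3.65 CPM (SD, n = 3; log2 fold change −0.38, adjusted p = 0.0284 from edgeR). Without siControl replicate 1, 2 or 3 or siDAB2IP replicate 1 or 2 its adjusted p was between 0.0557 and 0.0823. The summed level of PER1, PER2 and PER3 was 33.0, 28.2 and 30.7 FPKM in siControl and 24.4, 21.9 and 22.3 FPKM in siDAB2IP, with no overlap, and PER1 held 81.2% ± 2.57 and 83.5% ± 2.87 of it. For NPAS2, which can replace CLOCK, the log2 fold change was 0.08 (adjusted p = 0.78). ARNTL2, a relative of ARNTL, had one of 0.31 (adjusted p = 0.329), which became 0.52 (adjusted p = 0.0179) without siDAB2IP replicate 3 and 0.10 (adjusted p = 0.777) without siDAB2IP replicate 2. BHLHE41, the relative of BHLHE40, had one of 0.54 (adjusted p = 0.194) on 27 to 61 counts.

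NFIL3, the repressor that competes with DBP at D-boxes, fell with the smallest adjusted p of the 23. It was at 74.0, 73.6 and 77.0 CPM in siControl and at 33.8, 27.5 and 31.7 CPM in siDAB2IP. The log2 fold change was −1.27 (standard error 0.11, adjusted p = 0.000204 from edgeR), and it passed the threshold in all 15 alternatives. Of the 3 kinase genes of the list, 1 rose, 1 fell and 1 did not pass the test. CSNK1E, the casein kinase 1 epsilon gene whose product phosphorylates PER proteins, rose from 192 ± 6.84 to 290 ± 20.4 CPM (SD, n = 3; log2 fold change 0.60, adjusted p = 0.00524), while for its relative CSNK1D the log2 fold change was 0.08 (adjusted p = 0.705). BTRC, which encodes the ubiquitin ligase subunit that recognizes phosphorylated PER, fell from 18.2 ± 0.117 to 10.5 ± 1.77 CPM (log2 fold change −0.79, adjusted p = 0.00998). For its paralog FBXW11 the log2 fold change was −0.27 (adjusted p = 0.14). GSK3B, a kinase that acts on several clock proteins, fell from 76.1 ± 5.66 to 50.7 ± 2.78 CPM (log2 fold change −0.58, adjusted p = 0.00541). CSNK1E, BTRC and GSK3B kept their calls in each of the 6 fits without a library.

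Among the output genes, PPARGC1A and NAMPT fell. PPARGC1A, a coactivator of metabolic genes and of the ROR receptors, changed from 9.17 ± 0.933 to 3.06 ± 0.515 CPM (log2 fold change −1.58, standard error 0.20, adjusted p = 0.0016 from edgeR). NAMPT, the rate-limiting enzyme of NAD salvage, was at 423, 428 and 347 CPM in siControl and at 312, 255 and 173 CPM in siDAB2IP, and siDAB2IP replicate 3 was the lowest by a wide margin. Its log2 fold change was −0.70 (adjusted p = 0.0376), and the call was lost without siControl replicate 1, 2 or 3 or siDAB2IP replicate 2 (adjusted p between 0.0501 and 0.117) and with limma on log2(FPKM + 1) (0.0651) or log2(FPKM + 0.1) (0.0688). With the block NOCT also rose (log2 fold change 0.57, adjusted p = 0.0338) and WEE1 also fell (adjusted p = 0.0316).

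**Figure D4:**
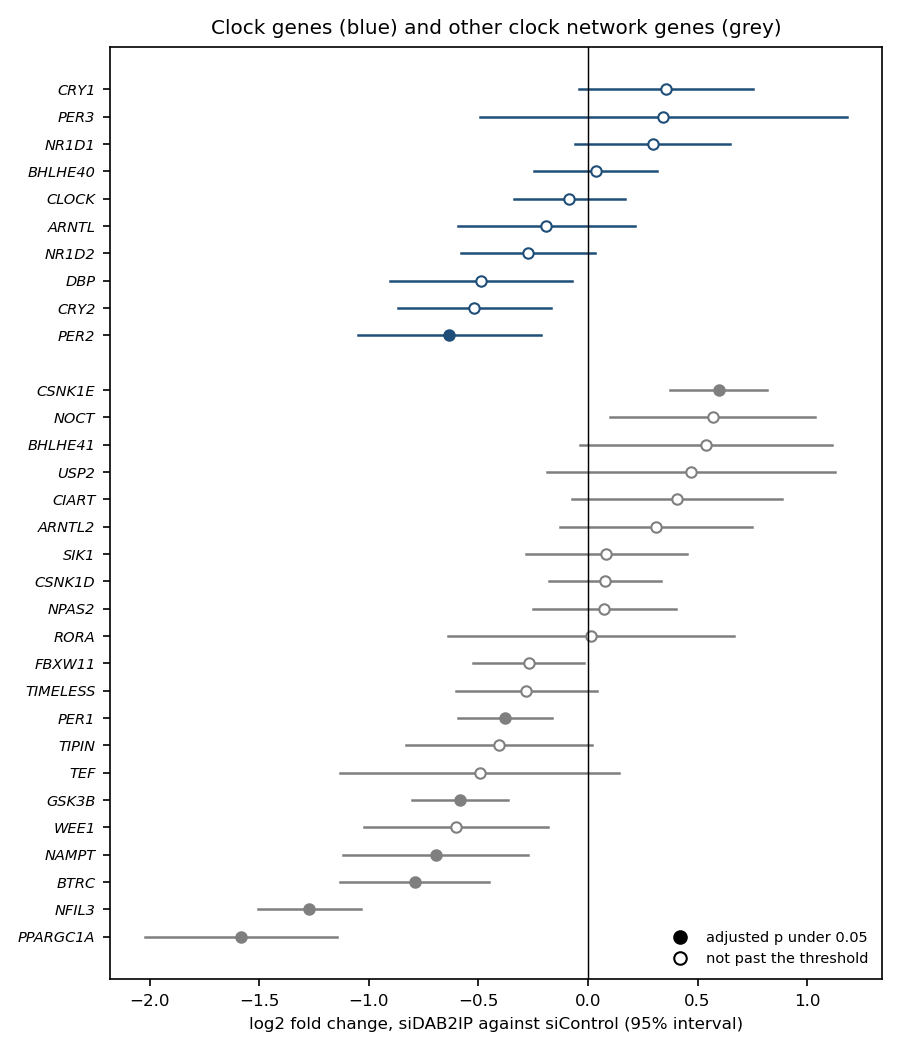
Log2 fold changes of siDAB2IP against siControl with 95% intervals for the 10 clock genes (blue) and other clock network genes (grey). Filled points have an adjusted p under 0.05. PER2 is the filled blue point, and NFIL3 and PPARGC1A lie farthest to the left.

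The genes most like PER2 over the 6 libraries were sought by the root mean square difference of log2 CPM after each gene was centred on its siControl mean. The 5 nearest were PIP5KL1 (0.07), FABP5P7 (0.09), GABPB1-IT1 (0.09), GGT5 (0.10) and WDR91 (0.10). None of these 5 belongs to the clock lists. GABPB1-IT1 (adjusted p = 0.0273) and WDR91 (adjusted p = 0.047) also fell, whereas PIP5KL1, FABP5P7 and GGT5 had adjusted p-values from 0.0632 to 0.25. As the 5 were chosen on these same libraries, their lower levels in siDAB2IP follow from the choice.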

How the data were processed

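RNA-Seq of 6 MCF10A libraries was run by a service provider on an Illumina NovaSeq. The submitters' processing notes name hg38, STAR 2.6.1d, featureCounts 1.5.0-p3, DESeq2 1.20.0 and edgeR 3.24.3. The authors deposited whole-number counts per gene without normalization. The authors also deposited FPKM values, in which counts are divided by gene length and library total. All 58735 genes have the positions of GENCODE release 29.

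Groups follow the sample titles. Counts were analyzed with R 4.3.3 and edgeR 4.0.16 (filterByExpr, TMM, glmQLFit, glmQLFTest, Benjamini-Hochberg over 15430 genes, threshold 0.05). Standard errors come from the F statistic. Count ratios used a prior count of 0.5 and exact permutation tests (SciPy 1.17.1). Alternatives were DESeq2 1.42.0, RLE factors, library size only, no filter, at least 10 counts in every library, limma 3.58.1 on log2(FPKM + 1) and log2(FPKM + 0.1) for a mean FPKM of at least 1, the replicate block and leaving out libraries. On simulated counts for siDAB2IP against siControl over 15430 genes, edgeR found 161 of 200 genes changed by 1 on the log2 scale, with 6 false calls. Deviations from the group means of libraries with the same replicate number correlated at 0.26, 0.15 and 0.25. With different numbers the correlation lay between −0.28 and 0.02. Replicate numbers were therefore treated as pairs in the fit with the block and in the differences within replicate numbers. The reported edgeR fit, with its calls and intervals, did not use them as pairs. The pairing rests on the data, as the labels do not say what a number stands for. Named genes were the members, DAB2IP, the called genes and the paralogs of a 26-gene clock list, and the 5 profiles nearest to the called member. Of the tested genes overlapping a member on the opposite strand, THRA and SPHK2 were named. Some genes of the lists count in the totals but are not reported here by name. CSNK1D, FBXW11, NOCT, WEE1 and the marker genes given with values were named after their values were seen. The members and lists were chosen with earlier results of these data known.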

Additional observations from a re-analysis of the deposited data

How the results depend on the processing

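The number of clock genes that fell was 1 in the reported fit. It was 2 with DESeq2, with no filter on low counts and with the replicate block, 0 with library size only and with limma on log2(FPKM + 1) or log2(FPKM + 0.1), and between 0 and 1 when libraries were left out. 0 clock genes rose in all 15 alternatives. Of the other clock network genes, 2 rose with the replicate block and between 1 and 2 without a library. Those that fell numbered 4 with limma on either scale, and between 4 and 7 without a library. Over all genes, 659 rose and 758 fell with limma on log2(FPKM + 0.1), and without a library 264 to 1172 rose and 459 to 1352 fell. These fits use fewer samples or fewer genes. The replicate block changed no other call of a clock gene than that of CRY2. The difference in the log2 ratio of CLOCK to ARNTL turned to −0.091 without siDAB2IP replicate 2, and ranged up to 0.33 over the fits that left out a library. The other 3 ratios kept their direction with a prior count of 2, with FPKM values and in the 6 fits without a library. The replicate block leaves these mean differences as they are by construction (0.88, 0.59 and −1.07), and its exact paired permutation p, which cannot go below 0.25, was 0.25 for each of the 3 and 0.5 for CLOCK to ARNTL. Without replicate 3 of both groups, signs turned for CLOCK (0.0098), PER3 (−0.094) and BHLHE40 (−0.072). Leaving out single libraries took BHLHE40 from −0.098 (siControl replicate 3) through −0.029 (siDAB2IP replicate 2) to 0.11, and NPAS2 from −0.055 (siDAB2IP replicate 1) to 0.14 (siDAB2IP replicate 3). PER3, DBP, BHLHE41 and PPARGC1A had no limma value, as their mean FPKM was under 1. Of 322 values over 22 genes, 284 kept direction and side of the threshold, 26 lost the call, 6 gained it and 6 turned sign, and the cause was not tested. PER3, at 12 to 38 counts, is limited by depth.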
